A study of Saccharomyces cerevisiae with 6 samples.

Results

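The 300 most densely transcribed spots of a yeast open reading frame array were chosen by their measured level among 6144 spots. The level, L, is the log2 ratio of the genomic run-on signal to the genomic DNA signal of the same membrane, minus the median of that ratio on the array, so that 0 is the typical spot and each unit is a factor of 2. A spot could be chosen only if its signal over background (S/N) was at least 2 on all 7 genomic DNA membranes and on all 18 run-on arrays, which 1691 spots met (27.5% of 6144). The 300 with the highest mean L over the 18 arrays are the members, 17.7% of the spots that passed and 4.88% of all spots. Because L over all 18 arrays selected them, their height above other spots is a description and has no test. The deposited files pair no spot with a gene, so members are given by their place on the membrane (row and column of a block, and position within the block), and no sequence is shown.

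Genomic run-on lets RNA polymerases that are already on a gene extend their transcript by a short stretch in permeabilised cells with radioactive UTP, so the signal of a gene reflects how many active polymerases it carries. In growing yeast a small part of the genome, with ribosomal protein genes and glycolytic genes as well-known examples, is transcribed far more densely than the rest. Cln3 is the G1 cyclin that starts the cell cycle and Whi5 is the repressor that Cln3 acts against; loss of Cln3 gives large cells and loss of Whi5 gives small ones.

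The study measured 6 Saccharomyces cerevisiae strains that differ in cell volume, in exponential growth in YPD (rich glucose medium), with 3 run-on arrays per strain. The strains were a cln3 deletion mutant, a whi5 deletion mutant, and wild-type strains of ploidy N (haploid BY4741), 2N (diploid PY4993), 3N (triploid PY4997) and 4N (tetraploid PY4996). The source label of the cln3 deletion describes wild-type cells in YPD with 0.6 M KCl, while its title and strain label name the deletion; the title was followed here, so every direction given for that strain rests on it. The labels name no parent strain of the mutants and no ancestry of the polyploid strains. They do not say whether the 3 arrays of a strain stem from independent cultures, so each p-value given here rests on the spread between arrays, which may be technical, and 3 arrays per strain limit the precision.

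The 18 run-on arrays were hybridised to 7 membranes numbered 12 to 18. Median run-on signal per spot lay between 39.0 and 166 intensity units, and between 73.5% and 83.7% of spots had an S/N of at least 2. The arrays did not stand equally in the order of the members. Spearman's rho of L over the 300 members had a median of 0.71 over the 18 pairs of arrays of one strain, 0.72 over the 45 pairs of different strains with the same run-on number, and 0.60 over the 75 pairs that shared neither strain, run-on number nor membrane. The 6 arrays of run-on number 1 had a median rho of 0.75 among themselves (15 pairs) and of 0.58 with run-on arrays 2 and 3 of other strains (60 pairs). Triploid array 2 and tetraploid array 3, both on membrane 12, had a rho of 0.90 with each other and of 0.38 to 0.53 with the haploid and whi5 deletion arrays (12 pairs). Counts, medians, rho between strains and named differences are also given without the run-on number 1 arrays or without this pair where that changes them.

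**Figure D1:**
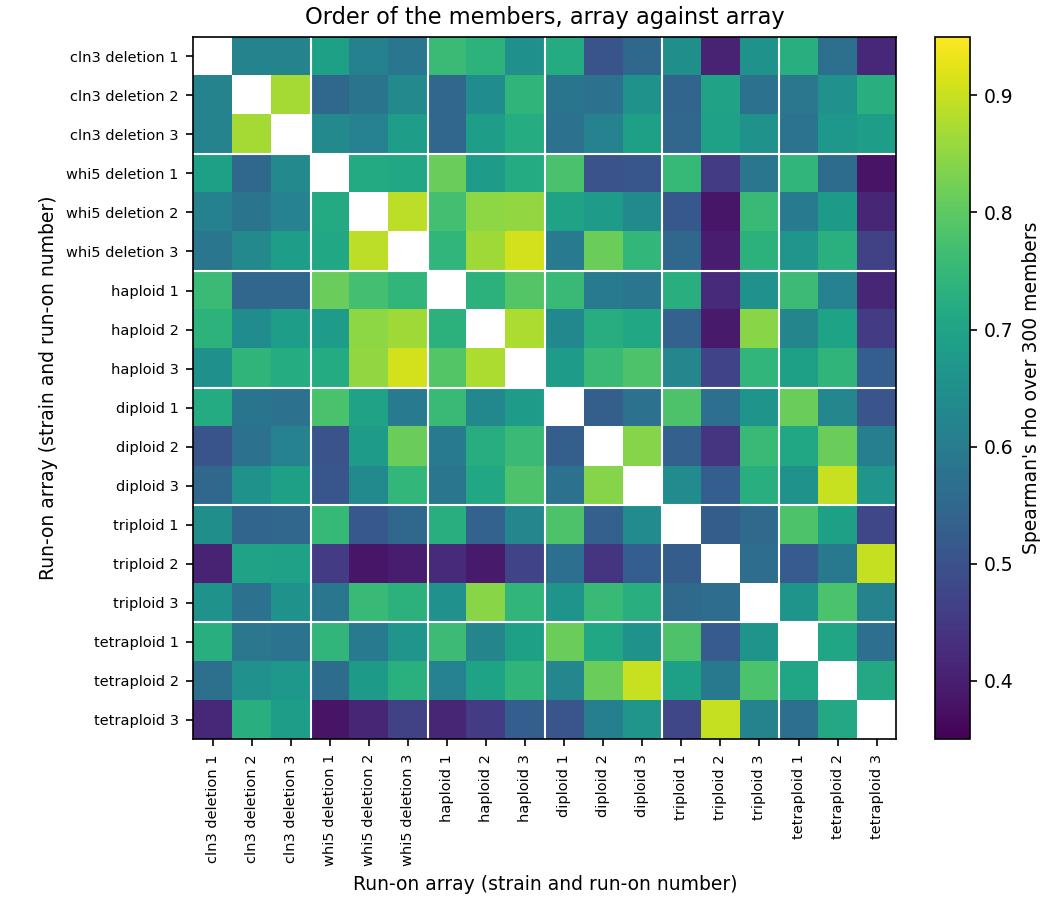
Spearman's rho between every pair of the 18 run-on arrays over the 300 members; colour gives rho, white lines separate strains and the diagonal is blank. Triploid array 2 and tetraploid array 3 are bright together (0.90) and dark against the haploid and whi5 deletion arrays (0.38 to 0.53).

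Mean L of the members ran between 0.976 and 3.73, that is, between 1.97-fold and 13.3-fold above the array median. The median member stood at 1.5 (2.83-fold), against -0.04 for the other 1391 spots that passed the filter. The distribution was steep at its top, with 10 members at 3 or more, 66 at 2 or more and 148 under 1.5. The limit at 300 fell on no gap. The last 3 members inside it had a mean L of 0.990 (row 10, column 24, position 5), 0.981 (row 9, column 5, position 10) and 0.976 (row 8, column 15, position 8). The first 3 spots outside it had 0.972 (row 16, column 21, position 2), 0.968 (row 10, column 4, position 1) and 0.966 (row 3, column 24, position 4).

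Membership depended on the genomic DNA signal as well as on the run-on signal. Of the 300 members, 195 were also among the 300 highest of the spots that passed by run-on signal alone, and the member placed lowest by that measure (row 8, column 18, position 4) was 1344th of 1691. A further 1909 spots passed the S/N minimum on every run-on array but not on every genomic DNA membrane, and 438 of them had a mean L above that of the lowest member. Without the S/N minimum on genomic DNA, 125 of the 300 remained members. The members are thus the densest spots among those with measurable genomic DNA signal, and not of the whole array.

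**Figure D2:**
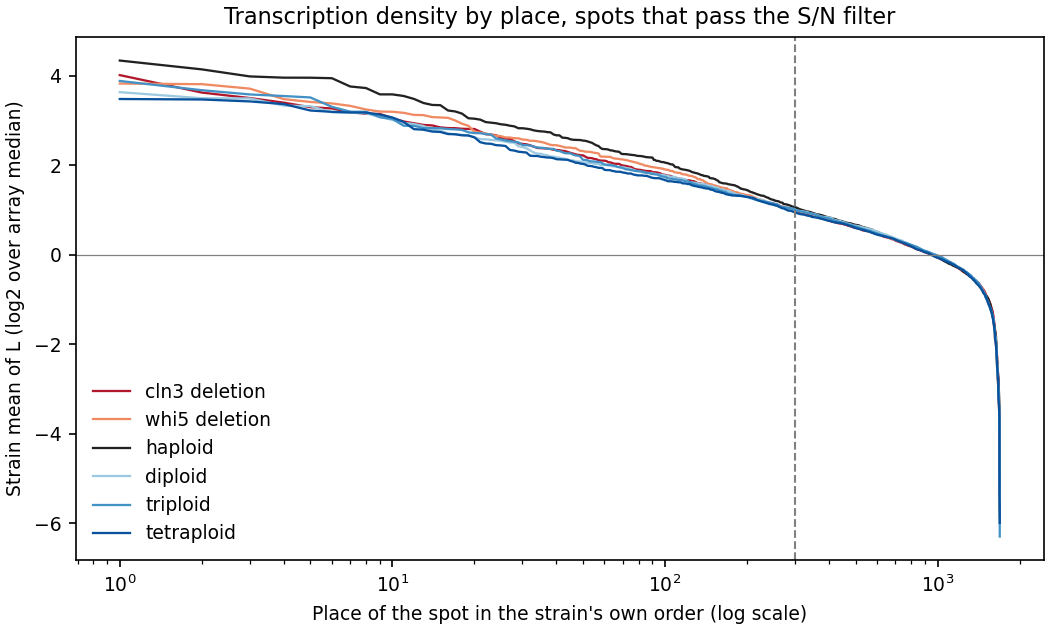
Strain mean of L (log2 over the array median) against the place of the spot in each strain's own order (log scale) for the 1691 spots that passed the S/N filter, with 1 line per strain and a dashed line at place 300. The haploid line lies above the other 5 at most of the highest places, and the 6 lines run together beyond the dashed line.

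The highest member overall was the spot at row 5, column 14, position 8. Its L was 3.24, 4.12 and 3.51 for the cln3 deletion, 3.06, 4.14 and 4.24 for the whi5 deletion, 3.66, 4.46 and 4.89 for the haploid, 3.08, 3.87 and 3.94 for the diploid, 3.28, 3.27 and 3.99 for the triploid, and 3.06, 3.82 and 3.56 for the tetraploid. The ranges of all strains overlapped, and in 5 strains the lowest value was that of array 1. The member at rank 2, at row 9, column 1, position 14, had L of 4.30, 4.02 and 3.73 for the cln3 deletion, 3.58, 3.11 and 3.55 for the whi5 deletion, 3.77, 4.02 and 4.07 for the haploid, 3.58, 3.50 and 3.41 for the diploid, 3.91, 3.68 and 4.06 for the triploid, and 3.52, 3.32 and 3.56 for the tetraploid. A pixel of this spot was at the ceiling of the image on 5 arrays (0.481% of its pixels), as was a pixel of 1 other member on 2 arrays, so saturation touched 2 of the 300 members. The member at rank 3, at row 6, column 11, position 2, had L of 3.19, 3.58 and 3.43 for the cln3 deletion, 3.55, 3.99 and 3.94 for the whi5 deletion, 3.37, 4.19 and 4.27 for the haploid, 3.26, 3.49 and 3.72 for the diploid, 3.41, 3.43 and 4.19 for the triploid, and 3.23, 3.56 and 3.30 for the tetraploid.

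The next 7 members had a mean L of 3.49 (row 5, column 12, position 2), 3.41 (row 3, column 15, position 3), 3.37 (row 9, column 2, position 14), 3.29 (row 4, column 6, position 13), 3.21 (row 10, column 6, position 11), 3.12 (row 7, column 9, position 3) and 3.01 (row 2, column 1, position 3). Neighbours in this order did not separate beyond the spread between arrays. Rank 1 exceeded rank 2 by 0.03 on average with an SD of the difference of 0.57 over 18 arrays, and was the higher on 9 of the 18. The clearest step among the first 10 places by number of arrays lay between ranks 3 and 4, where rank 3 was higher on 14 of 18 arrays (mean difference 0.12, SD 0.15), as was rank 6 over rank 7 (0.08, SD 0.17). By run-on signal alone, 5 of these 10 members were among the 10 highest of the spots that passed and 9 were among the 50 highest.

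**Figure D3:**
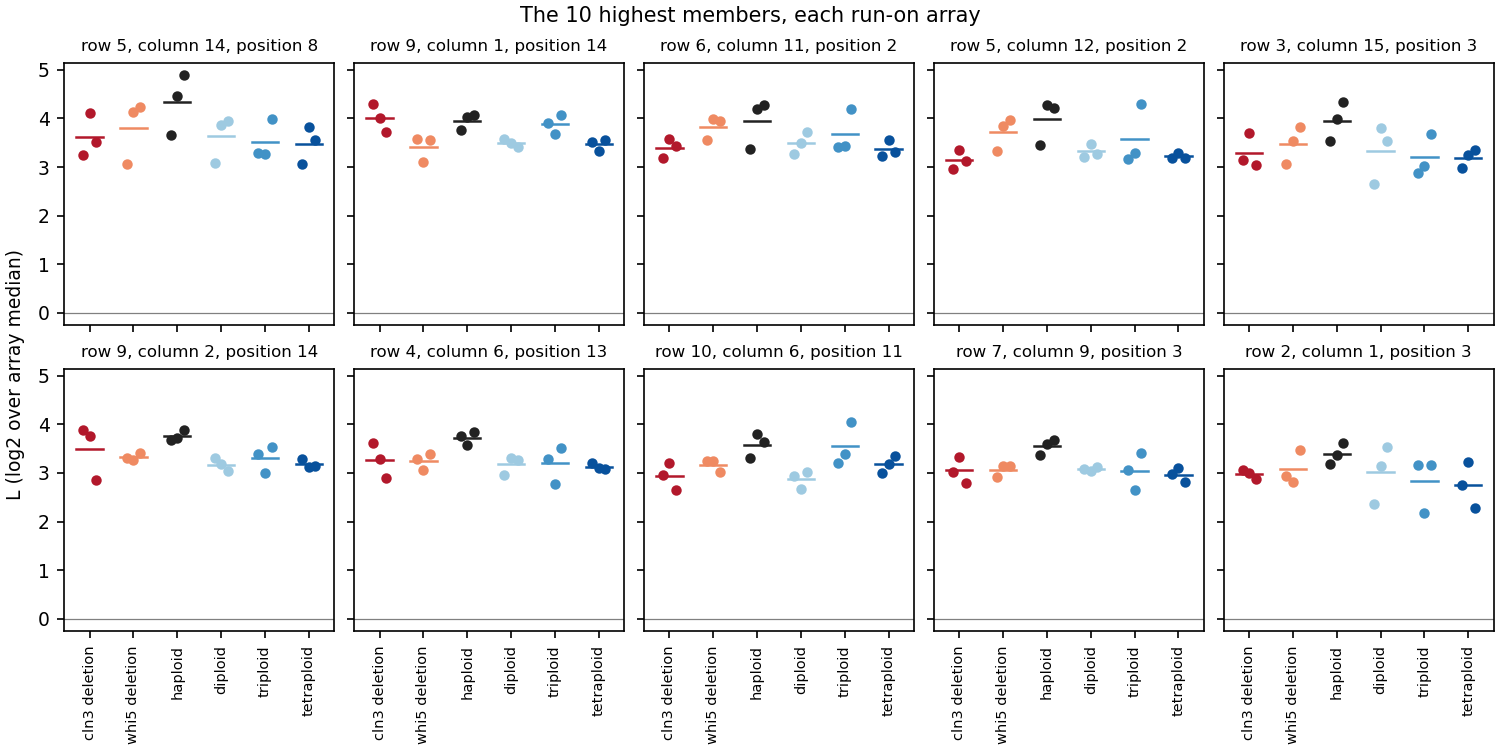
L of the 10 highest members on each of the 18 run-on arrays, 1 panel per member with its place on the membrane; points are arrays 1 to 3 and short lines are strain means. In all 10 panels every point lies above 2, and the haploid mean is the highest of the 6 in 9 panels.

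The members together held a share of the run-on signal several times their share of the spots. Their share of the summed signal of all spots was 19.6%, 19.5% and 19.4% for the cln3 deletion, 19.9%, 21.8% and 21.4% for the whi5 deletion, 21.8%, 21.7% and 21.6% for the haploid, 19.3%, 19.6% and 20.1% for the diploid, 19.2%, 19.6% and 20.8% for the triploid, and 18.6%, 19.4% and 19.7% for the tetraploid. In genomic DNA the same spots held 5.33% to 5.96% over the 7 membranes, close to their 4.88% of the spots. Among the spots that passed the filter, of which members are 17.7%, they held 38.8% to 43.9% of the run-on signal. Of the genomic DNA signal of those spots they held 11.6% to 12.9%, less than their share of the spots. The median genomic DNA signal per spot was nevertheless close between members and the other spots that passed. It was 52.1 against 48.1 on membrane 12, where this share was highest, and 66.4 against 69.8 on membrane 14, where it was lowest. The 10 highest members held 2.09% to 3.08% of run-on signal and the 50 highest held 6.12% to 8.27%.

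All arrays of the cln3 deletion, the diploid, the triploid and the tetraploid had a smaller member share than all 3 haploid arrays, while the whi5 deletion overlapped the haploid. The mean share was 19.5% ± 0.0893 for the cln3 deletion, 21.0% ± 0.998 for the whi5 deletion, 21.7% ± 0.0936 for the haploid, 19.7% ± 0.413 for the diploid, 19.9% ± 0.840 for the triploid and 19.3% ± 0.553 for the tetraploid (SD, n = 3 arrays each). The members were selected on these same arrays, so the share has no p-value. On a shared membrane the direction was the same. On membrane 12 the share was 19.6% in the triploid and 19.7% in the tetraploid, against 21.8% in the haploid. On membrane 13 it was 19.6% in the cln3 deletion and 20.8% in the triploid, against 21.7% in the haploid. On membrane 14 it was 19.5% in the cln3 deletion, against 21.6% in the haploid. The whi5 deletion and the diploid shared no membrane with the haploid.

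The background subtraction bears on this result. With the uncorrected densities the share was 16.02% to 17.7% in the cln3 deletion and 17.1% to 17.8% in the tetraploid, below the 18.6% to 19.4% of the haploid, but the diploid (17.9% to 18.8%) and the triploid (17.3% to 19.3%) overlapped it. As a share of the summed run-on over genomic DNA ratio of the 1691 spots, the triploid also overlapped the haploid (40.4% to 44.8%, against 44.3% to 48.3%).

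**Figure D4:**
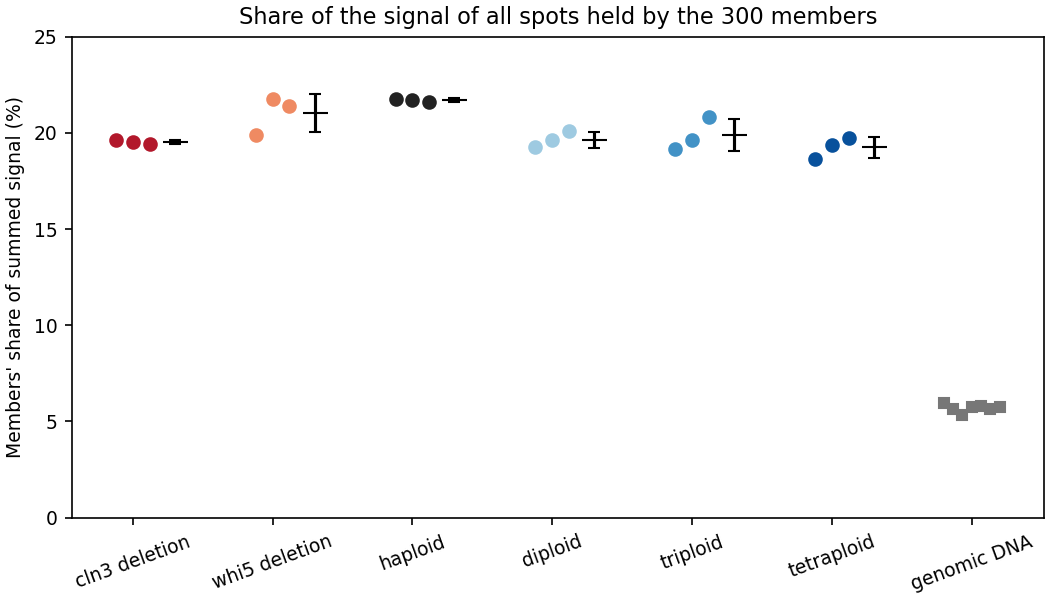
Share of the summed background-subtracted signal of all spots held by the 300 members (%), with 1 point per run-on array, the strain mean and SD beside the points, and squares for the 7 genomic DNA membranes. Haploid arrays lie between 21.6% and 21.8%, and all arrays of the cln3 deletion, diploid, triploid and tetraploid lie below them.

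The smaller share went with a lower L of the members. In the cln3 deletion the median log2 difference of the members from the haploid was -0.20, and 218 of 300 members were below 0. The median log2 difference from the haploid was -0.15 in the whi5 deletion (231 members below 0), -0.18 in the diploid (223), -0.21 for the triploid (220) and -0.25 for the tetraploid (233). These 5 comparisons share the 3 haploid arrays, and members on one array are not independent. The median L of the members on each array was 1.44, 1.62 and 1.68 in the whi5 deletion, against 1.65, 1.70 and 1.76 in the haploid. The whi5 deletion thus overlapped the haploid, while all arrays of the cln3 deletion, diploid, triploid and tetraploid lay below it. Over the other 1391 spots that passed, the medians lay between -0.02 and 0.02, with 47.1% to 52.8% of spots below 0. They were not near 0 throughout. In the tenth of spots with the lowest mean L, the median was -0.12 for the whi5 deletion and -0.11 for the diploid. It was -0.08 for the triploid, -0.10 for the tetraploid and 0.02 for the cln3 deletion. Between the mutants, the median member difference of the cln3 deletion from the whi5 deletion was -0.08, with 181 of 300 below 0.

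The lower values were largest at the very top. The 10 highest members had a median log2 difference from the haploid of -0.52 for the cln3 deletion, -0.46 for the whi5 deletion, -0.56 for the diploid, -0.48 for the triploid and -0.59 for the tetraploid. For the 150 lower-ranked members the medians were -0.11 for the cln3 deletion, -0.10 for the whi5 deletion, -0.07 for the diploid, -0.11 for the triploid and -0.10 for the tetraploid. The sign of the median held without the arrays of run-on number 1 (-0.13 to -0.25) and without triploid array 2 and tetraploid array 3 (-0.15 to -0.27). Its size depended on the processing. Uncorrected densities gave 0.0479 for the diploid, -0.00555 for the whi5 deletion, -0.0385 for the triploid and -0.0513 for the tetraploid, and with membrane as a block the median was 0.00173 in the whi5 deletion, which shares no membrane with the haploid. Quantile normalisation, which gives all arrays 1 distribution, left -0.0186 to -0.0834.

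In the main fit, which has no term for run-on number or membrane, single members rarely passed a test between strains after adjustment. In the cln3 deletion against the haploid, 2 of 300 members were called at an adjusted p under 0.05 and both fell, near the 0.657% called over all 5933 spots tested in either direction and the 0.32% called lower. At an unadjusted p under 0.05, 51 members (17%) were found in that comparison, against 6.94% of all spots. In the whi5 deletion, 0 members were called by limma, against 0.0506% of all spots, and 12 members (4%) had an unadjusted p under 0.05, against 2.78%. The cln3 deletion against the whi5 deletion gave 1 member higher and 1 lower, against 1.37% of all spots, with 42 members (14%) at an unadjusted p under 0.05 against 9.2%. In these 3 comparisons the members' share of adjusted calls differed from that of all spots by about 2 members or fewer.

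In the diploid against the haploid, 2 members were called and both fell, where 0.691% of all spots were called and 0.657% were called lower. Unadjusted, there were 58 members (19.3%), against 6.64% of all spots. In the triploid 2 members fell, with 0.961% of all spots called and 0.876% called lower, and 70 members (23.3%) passed unadjusted, against 9.35%. In the tetraploid 5 members fell, with 1.16% of all spots called and 1.04% called lower, and 77 members (25.7%) passed unadjusted, against 9.54%. The slope of L on log2 ploidy over the 12 wild-type arrays was called in 7 members, all downward, against 1.2% of all spots in either direction and 1.03% downward. The F test of any difference among the 6 strains called 6 members, against 2.51% of all spots. Over all 8 tests, those of the mutants included, 12 members were called at least once and 288 were not called. The same count was not made over all spots, so these 12 are not set against the rest of the array. The counts of members called turn on single arrays and on the fit. The shares of all spots given above belong to the main fit, so the counts below do not compare members with other spots. With the run-on number as a block, 4 members were called in the diploid and 23 in the tetraploid. Same-numbered arrays deviated together in these comparisons and in that of the whi5 deletion with the haploid. In the other comparisons they did not do so in every pair. There the counts were 4 in the cln3 deletion, 7 between the mutants and 6 in the triploid. With membrane as a fixed block there were 0 in the diploid, 1 in the tetraploid, 0 for the slope and 2 in the F test. Without triploid array 2 and tetraploid array 3 there were 0 in the tetraploid, 0 in the triploid, 0 in the trend and 3 in the F test.

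The spot at row 7, column 14, position 4 was the largest fall in the cln3 deletion. Its L was 1.55, 1.23 and 2.02 in the cln3 deletion, against 3.22, 4.18 and 5.02 in the haploid, and the 2 groups did not overlap. The log2 difference was -2.54 (SE 0.504, limma adjusted p = 0.023). This spot was second in the haploid, with a mean of 4.14 ± 0.90, and 129th of the members in the cln3 deletion. The call was lost without any 1 of the cln3 deletion arrays or without haploid array 2 or 3, with differences of -2.10 to -3.00 over all single arrays left out. On shared membranes the difference between single arrays was -2.63 on membrane 13 and -3.79 on membrane 14. In the whi5 deletion it had 2.44, 3.75 and 3.95, a range that overlaps the haploid. The log2 difference from the haploid was -1.22 for the diploid (limma adjusted p = 0.61), -1.56 for the triploid (adjusted p = 0.26) and -2.15 for the tetraploid (adjusted p = 0.05), none of them called, and the slope on log2 ploidy was -1.04 and called (SE 0.218, limma adjusted p = 0.035). With only the strains compared the cln3 deletion call was lost. No member was called for the slope with membrane as a fixed block, or without triploid array 2 and tetraploid array 3.

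The other fall in the cln3 deletion was at row 7, column 9, position 1. Its L was -0.10, 0.94 and 0.62 in the cln3 deletion, 1.61, 2.04 and 2.26 in the whi5 deletion and 1.84, 2.51 and 2.33 in the haploid. The cln3 deletion lay below both other strains on every array. The log2 difference was -1.74 from the haploid (SE 0.263, limma adjusted p = 0.0024) and -1.49 from the whi5 deletion (SE 0.263, limma adjusted p = 0.0058). Its L was also lower in the polyploid strains than in the haploid, at 1.04, 1.05 and 1.06 for the diploid, 1.00, 1.2 and 1.57 for the triploid and 0.53, 0.96 and 0.90 for the tetraploid, with a slope of -0.65 per unit of log2 ploidy (SE 0.125, limma adjusted p = 0.022). The strain mean was higher in the triploid (1.26) than in the diploid (1.05), so the fall was not even along the series. The call for the slope was lost when any 1 of the haploid arrays was left out, with slopes of -0.55 to -0.71 over all single arrays left out. It was also lost without division by genomic DNA (-0.604). The same held without the arrays of run-on number 1 (-0.676) and without triploid array 2 and tetraploid array 3 (-0.69). This spot was also called in the tetraploid, with a log2 difference from the haploid of -1.43 (SE 0.263, limma adjusted p = 0.011). The F test of any strain difference called it too (limma adjusted p = 0.0032). Without triploid array 2 and tetraploid array 3, no member was called in the tetraploid. With membrane as a fixed block both cln3 deletion calls were lost, at -1.76 from the haploid and -1.67 from the whi5 deletion. The slope call was lost there as well (-0.46). With only the strains compared both cln3 deletion calls were lost.

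The spot at row 14, column 19, position 12 was the 1 member called higher in the cln3 deletion than in the whi5 deletion. Its L was 2.73, 2.42 and 3.10 in the cln3 deletion, against 1.53, 0.49 and 0.32 in the whi5 deletion. The groups did not overlap, and the log2 difference was 1.97 (SE 0.447, limma adjusted p = 0.036). The call was lost without any 1 of 8 arrays, all 3 of the cln3 deletion and arrays 2 and 3 of the whi5 deletion among them, with differences of 1.74 to 2.35 over all single arrays left out. It was also lost with membrane as a fixed block (2.14) and with only the strains compared. The same held without triploid array 2 and tetraploid array 3 (1.97) and without division by genomic DNA (1.81). Scaling to a common MAD, quantile normalisation and cyclic loess each lost the call too. On membrane 15, which both strains share, the arrays differed by 1.58.

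Among the members named here for a call, a pair separated the 9 wild-type arrays of higher ploidy from the 9 arrays of the mutants and the haploid. How many other members or other spots separate in this way was not counted. At row 8, column 18, position 4, L was -0.16, -0.11 and 0.12 for the diploid, -0.44, 0.22 and 0.75 for the triploid and -0.28, -0.04 and 0.52 for the tetraploid, against 1.02, 2.67 and 2.37 in the haploid. The cln3 deletion had 1.74, 2.00 and 2.73 and the whi5 deletion 1.53, 2.01 and 2.39. The 9 polyploid values all lay below the other 9. The log2 difference from the haploid was -2.07 in the diploid (limma adjusted p = 0.019), -1.84 in the triploid (adjusted p = 0.039) and -1.95 in the tetraploid (adjusted p = 0.024), with an SE of 0.406 for each. Each of the 3 calls was lost without haploid array 2 or 3. The diploid call was also lost without any 1 of the diploid arrays, the tetraploid call without tetraploid array 1 or 2, and the triploid call without any 1 of 10 arrays in all. With membrane as a fixed block all 3 were lost, at -1.63 for the diploid, -1.60 for the triploid and -1.51 for the tetraploid, and all 3 were lost with only the strains compared. Without triploid array 2 and tetraploid array 3 the triploid (-1.87) and tetraploid (-2.18) calls were lost. Quantile normalisation lost the triploid call (-1.67). On membrane 12 the differences from the haploid array were smaller, at -0.79 for the triploid and -0.50 for the tetraploid array, while on membrane 13 the triploid array differed by -1.92. This is the member placed lowest by run-on signal alone, and its genomic DNA signal averaged -1.05 log2 units relative to the membrane median.

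At row 9, column 10, position 10, L was 0.78, 0.73 and 0.69 for the diploid, 0.87, 0.94 and 0.73 for the triploid and 0.45, 0.50 and 0.57 for the tetraploid, against 1.64, 1.72 and 1.30 in the haploid. The mutants had 1.46, 2.21 and 1.94 (cln3 deletion) and 1.96, 2.10 and 1.67 (whi5 deletion). Here too all polyploid values lay below all others. This member had the smallest p of the members in the F test of any strain difference (limma adjusted p = 0.00033; 0.0019 for the spot at row 8, column 18, position 4), and its slope on log2 ploidy was -0.48 (SE 0.0875, limma adjusted p = 0.022). The call for the slope was lost without any 1 of the haploid arrays. Slopes ran from -0.42 to -0.52 over all single arrays left out. The slope call was also lost with membrane as a fixed block and without division by genomic DNA (-0.438). The same held without the arrays of run-on number 1 (-0.449) and without triploid array 2 and tetraploid array 3 (-0.517).

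Of the remaining named falls, the one at row 12, column 24, position 5 in the tetraploid was the largest. Its L was 0.86, -1.55 and -1.09 in the tetraploid, against 1.73, 2.11 and 2.31 in the haploid. The groups did not overlap, but the tetraploid arrays differed by over 2 log2 units among themselves. The log2 difference was -2.65 (SE 0.551, limma adjusted p = 0.024), and the call was lost without array 2 or 3 of the haploid or of the tetraploid, and with membrane as a fixed block (-3.00). It was also lost without triploid array 2 and tetraploid array 3 (-2.40), and with only the strains compared. At row 2, column 19, position 13, L was 1.41, 0.86 and 1.47 in the triploid, against 2.29, 2.38 and 2.41 in the haploid, a log2 difference of -1.12 (SE 0.239, limma adjusted p = 0.033). At row 15, column 13, position 9, L was 0.92, 0.72 and 0.88 in the diploid, against 1.71, 1.47 and 1.5 in the haploid, a log2 difference of -0.72 (SE 0.153, limma adjusted p = 0.038). Neither pair of groups overlapped. The triploid call was lost without any 1 of 7 arrays and the diploid call without any 1 of 11, all 3 haploid arrays among them in both. With membrane as a fixed block the triploid call held and the diploid call was lost (-0.61). Without the arrays of run-on number 1 both were lost, at -1.235 for the triploid and -0.686 for the diploid. The triploid call was also lost without triploid array 2 and tetraploid array 3 (-0.922). Uncorrected densities, no division by genomic DNA, quantile normalisation, cyclic loess and only the strains compared each lost both calls.

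**Figure D5:**
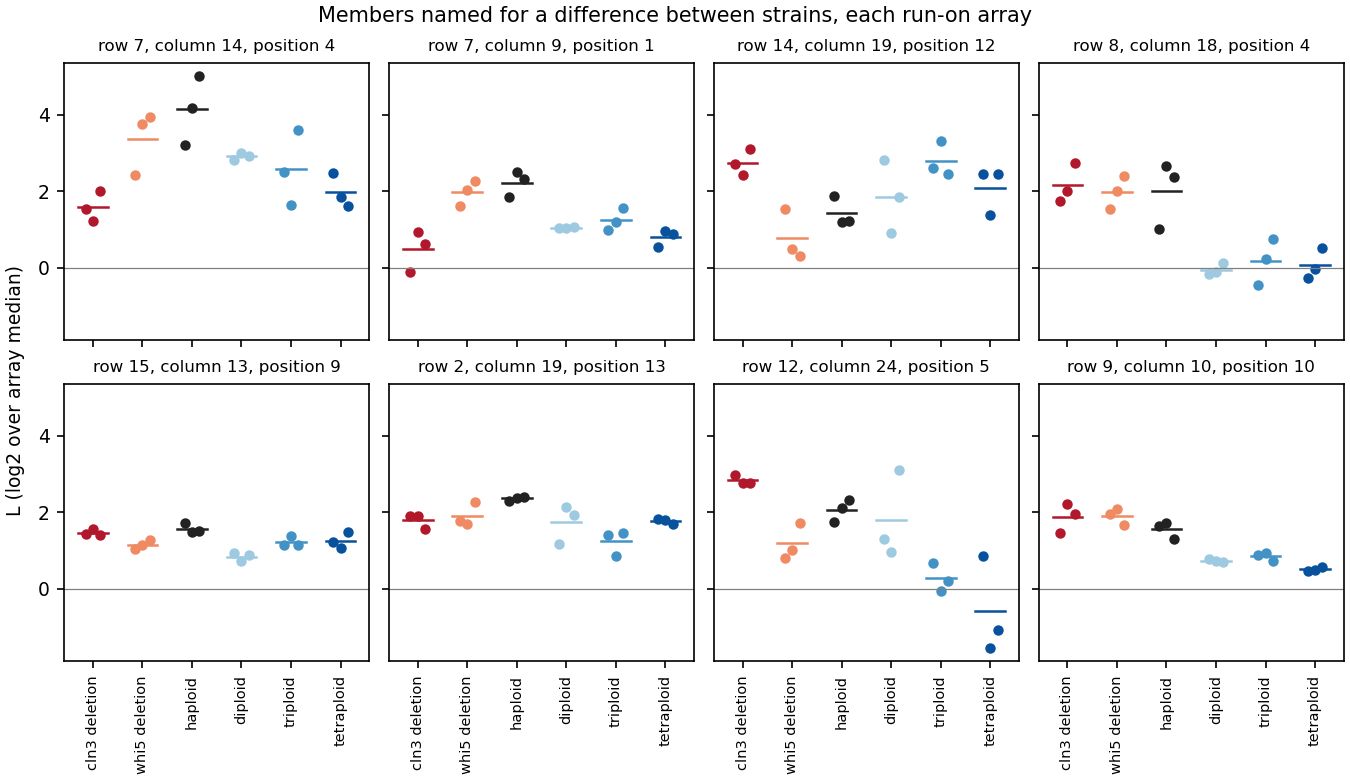
L of the 8 members named for a difference between strains on each of the 18 run-on arrays, 1 panel per member; points are arrays 1 to 3, short lines are strain means and the grey line is the array median. At row 8, column 18, position 4 and at row 9, column 10, position 10 all diploid, triploid and tetraploid points lie below all other points.

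The share of spots common to all strains was about the same for the 10 and the 300 highest, and smaller for the 50 highest. Of the 10 highest spots of each strain among those that passed, 7 were in the 10 highest of all 6 strains, and 17 spots were in the 10 highest of at least 1. For the 50 highest the numbers were 29 and 75, and for the 300 highest 213 and 408. Of the 300 members, 213 were among the 300 highest in all 6 strains, 30 in 5, 33 in 4, 22 in 3 and 2 in 2. The place of a member among the 300, taken from strain means, ranged over a median of 4 places for members ranked 1 to 10, 27.5 for those ranked 11 to 50, 74.5 for 51 to 150 and 90.5 for the rest. The levels lie closer together further down, where 0.53 log2 units span the 150 lowest members, against a median SD between arrays of one strain of 0.26 for these members.

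First place was held by the spot at row 5, column 14, position 8 in the haploid, the diploid and the tetraploid, by row 9, column 1, position 14 in the cln3 deletion and the triploid, and by row 6, column 11, position 2 in the whi5 deletion. In each strain the first 2 differed by less than the larger of their SDs over 3 arrays. The members that moved least among the 50 highest were at row 3, column 15, position 3 (places 4 to 7), row 4, column 6, position 13 (6 to 9) and row 5, column 14, position 8 (1 to 5), the last tied with 3 other members of the 10 highest that also moved over 4 places. Those that moved most were at row 12, column 24, position 5, which was 15th for the cln3 deletion and 300th for the tetraploid, at row 14, column 19, position 12, which was 17th for the triploid and 293rd for the whi5 deletion, and at row 8, column 18, position 4, which was 52nd for the cln3 deletion and 300th for the diploid and triploid. Within the cln3 deletion the first of these 3 had L of 2.98, 2.78 and 2.78.

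The spot at row 7, column 13, position 11, singled out after its values were seen, held place 3 in the tetraploid with L of 3.18, 3.48 and 3.61, and 15th overall. On the 3 arrays hybridised to membrane 13 its L was -0.33 (cln3 deletion), 0.42 (triploid) and 0.46 (haploid), while the other 15 arrays had higher values. Its genomic DNA signal relative to the membrane median was 2.45 log2 units on membrane 13 and between -1.38 and -0.12 on the other 6 membranes. By run-on signal alone it lay between 2.20 and 3.21 above the array median on all 18 arrays. No other member had genomic DNA values that ranged over more than 2 log2 units between membranes, against 5 of the other 1391 spots, and the median range was 0.56 for members and for the other spots.

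Between strains, Spearman's rho of strain mean L over the 300 members was highest for the whi5 deletion with the haploid (0.926), which share no membrane, followed by the triploid with the tetraploid (0.895) and the diploid with the tetraploid (0.893), which share 2 membranes each. It was lowest for the whi5 deletion with the tetraploid (0.690) and with the triploid (0.716). With 1 array left out these 2 values ranged over 0.604 to 0.760 and 0.599 to 0.784, the highest without tetraploid array 3 and without triploid array 2, so the lowest pair turns on single arrays. The cln3 deletion had 0.745 with the whi5 deletion, 0.801 with the haploid, 0.763 with the diploid, 0.796 with the triploid and 0.784 with the tetraploid. These values describe 300 spots with restricted levels; over all 1691 spots that passed they lay between 0.934 and 0.980. Points of one pair share the genomic DNA of common membranes, and without the division by genomic DNA the members' rho was 0.890 to 0.971 over the 15 pairs of strains. That order is of run-on signal not corrected for the DNA in each spot, and members reach down to place 1344 in it. The rho with and without the division are therefore not like for like, and the higher values do not test the order by L. Single arrays were less alike than strain means. The closest array was one of the same strain for 5 of 18 arrays, one of the same run-on number for 8 and one on the same membrane for 5.

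The spread between arrays of one strain was slightly wider for members than for the other spots that passed. The median SD of L over 3 arrays was 0.26 for the cln3 deletion, 0.26 for the whi5 deletion, 0.24 for the haploid, 0.25 for the diploid, 0.34 for the triploid and 0.24 for the tetraploid for members, against 0.22 to 0.27 for the others. Members were found in all 16 rows and all 24 columns of blocks. Of the spots that passed, 12.7% (row 10) to 25.5% (row 3) were members by row. By column it was 9.68% (column 21, 3 of 31) to 27.9% (column 24, 17 of 61). By position within a block the range was wider. Members were 36.1% of the spots that passed at position 11 (13 of 36) and 28.3% at position 7 (36 of 127). At position 12 they were 8.57% (3 of 35) and at position 6 they were 9.33% (7 of 75). Adjoining a member was about as common for members (43.0%) as for other spots that passed (41.7%). Of the 25 spots that passed and adjoin one of the 10 highest members, 4 were members themselves (16%, against 17.7% of all spots that passed).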

How the data were processed

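The deposited files are spot tables of 18 run-on arrays and of the 7 genomic DNA hybridisations, 1 per membrane, repeated in 18 tables. Per the file headers, the density is an intensity per area, and the deposited sARMDens intensity is that density less background. The deposited S/N is a score and the deposited share of pixels at the ceiling is a percent. The design text names a normalisation by MAD, which these intensities precede. Run-on number and membrane come from the deposited names of the arrays.

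L was fitted over all 18 arrays in 1 model of strain means with limma 3.58.1 in R 4.3.3, with Benjamini-Hochberg adjustment over all spots tested and a call at an adjusted p under 0.05. Signals of 0 were treated as missing. The fit was tested on simulated data. Tables were made with pandas 2.3.3. Depth does not apply to arrays. S/N minimum, lists and members were chosen with earlier results of these data known. Named spots are the 10 highest, the 3 on either side of the limit, the 3 that moved most and least in order, and, per comparison, up to 2 called members per direction by size among those whose groups do not overlap (by smallest p for the F test and the slope).

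Same-numbered run-on arrays deviated together for the whi5 deletion (r = 0.49, 0.20 and 0.38), the diploid (0.47, 0.13 and 0.35) and the tetraploid (0.35, 0.16 and 0.14) against the haploid, and not in every pair for the other comparisons. Alternatives cover scaling, background, genomic DNA, filters, membrane, run-on number and single arrays. Gene names and sequences were not used here.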

Additional observations from a re-analysis of the deposited data

How the results depend on the processing

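Of the 300 members, 195 remained without division by genomic DNA, 188 at an S/N of at least 3 (988 spots pass), 120 without any S/N filter and 125 without that on genomic DNA, while 289 to 299 remained under 4 other settings and 297 to 299 when 1 array was left out. The last setting of the S/N filter, and leaving out groups of arrays, were chosen after seeing the data.

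The member share with uncorrected densities was 16.95% for the cln3 deletion, 18.97% for the whi5 deletion, 18.99% for the haploid, 18.2% for the diploid, 18.03% for the triploid and 17.6% for the tetraploid. Of the signal of the spots that passed, it was 39.9% for the cln3 deletion, 42.6% for the whi5 deletion, 42.4% for the haploid, 40.1% for the diploid, 40.4% for the triploid and 39.5% for the tetraploid. Of their summed ratio, it was 42.3% for the cln3 deletion, 43.3% for the whi5 deletion, 46.4% for the haploid, 41.2% for the diploid, 41.9% for the triploid and 40.8% for the tetraploid. With 1 array left out it was 19.5% to 19.6% for the cln3 deletion, 20.7% to 21.6% for the whi5 deletion, 21.7% to 21.8% for the haploid, 19.4% to 19.9% for the diploid, 19.4% to 20.2% for the triploid and 19.0% to 19.6% for the tetraploid.

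The median member difference from the haploid with quantile normalisation was -0.0808 for the cln3 deletion, -0.0345 for the whi5 deletion, -0.0186 for the diploid, -0.0834 for the triploid and -0.0334 for the tetraploid. With cyclic loess it was -0.0493 for the cln3 deletion, -0.0219 for the whi5 deletion, -0.0177 for the diploid, -0.0561 for the triploid and -0.0353 for the tetraploid. With uncorrected densities it was -0.00555 in the whi5 deletion, 0.0479 for the diploid, -0.0385 for the triploid, -0.0513 for the tetraploid and -0.192 for the cln3 deletion minus the whi5 deletion. With membrane as a fixed block it was 0.00173 in the whi5 deletion, -0.0815 in the diploid and -0.149 in the tetraploid. With 1 array left out it ranged over -0.267 to -0.145 for the cln3 deletion, -0.212 to -0.0851 for the whi5 deletion, -0.240 to -0.107 for the diploid, -0.286 to -0.152 for the triploid and -0.310 to -0.187 for the tetraploid, and the difference between the mutants over -0.157 to -0.00827.

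The member counts in this paragraph have no share of all spots in the same setting beside them. They show how far calls depend on the setting and do not compare members with other spots. Counts of members called moved most. With the run-on number as a replicate block they were 4 in the cln3 deletion, 7 between the mutants, 4 for the diploid, 6 for the triploid, 23 for the tetraploid, 20 for the slope on ploidy and 14 in the F test, while a random membrane block gave 7 for the cln3 deletion, 5 between the mutants, 2 for the diploid, 6 for the triploid, 18 for the tetraploid, 13 for the slope and 13 for the F test. With membrane as a fixed block they were 0 between the mutants, 0 in the diploid, 1 in the tetraploid, 0 for the slope and 2 in the F test. With only the strains compared they were 0 in the cln3 deletion, 1 between the mutants, 0 for the diploid, 1 for the triploid and 1 for the tetraploid. With only spots that passed the filter, which also narrows the set adjusted over, they were 4 in the diploid, 17 in the tetraploid, 20 for the slope and 10 in the F test. Scaling to a common MAD gave 4 between the mutants. No division by genomic DNA gave 1 between the mutants, 1 in the triploid and 1 for the slope. Uncorrected densities gave 1 in the diploid and 2 for the slope. Quantile normalisation gave 1 in the diploid, 0 in the triploid and 3 for the slope, and cyclic loess 1 in the triploid and 3 for the slope. Without the arrays of run-on number 1 there were 5 between the mutants, 4 in the diploid and 1 for the slope. Without triploid array 2 and tetraploid array 3 there were 1 between the mutants, 0 in the triploid, 0 in the tetraploid, 0 for the slope and 3 in the F test. With 1 array left out the counts were 1 to 2 for the cln3 deletion, 0 for the whi5 deletion, 1 to 3 between the mutants, 0 to 4 for the diploid, 0 to 6 for the triploid, 1 to 11 for the tetraploid, 0 to 14 for the slope and 4 to 9 in the F test. In the tetraploid the lowest counts were 1 without haploid array 3 and 2 without haploid array 2, and the highest 11 without triploid array 2 or 3. The cause was not tested. None of the 12 named log2 differences reversed under any alternative run, and each was lost in 2 to 18 of them. With only the strains compared all 10 named differences between 2 strains were lost as calls. The median SE of a member's difference was 0.25 with 3 arrays per strain, and the smallest named difference between 2 strains was -0.72.

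Without division by genomic DNA, rho of the members' order for the cln3 deletion was 0.897 with the whi5 deletion, 0.922 with the haploid, 0.904 with the diploid, 0.927 with the triploid and 0.906 with the tetraploid. It was 0.940, 0.898 and 0.890 for the whi5 deletion with the diploid, triploid and tetraploid, and 0.935 and 0.897 for the haploid with the diploid and tetraploid. With 1 array left out it ranged over 0.681 to 0.766 for the cln3 with the whi5 deletion, and for the cln3 deletion over 0.716 to 0.816 with the haploid and 0.683 to 0.780 with the diploid. The widest ranges were 0.639 to 0.835 for the haploid with the triploid, and for the whi5 deletion 0.599 to 0.784 with the triploid and 0.604 to 0.760 with the tetraploid. Without the arrays of run-on number 1 it was 0.657 for the cln3 with the whi5 deletion, 0.678 for the cln3 deletion with the diploid and 0.703 for the diploid with the triploid.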
